A study of Mus musculus with 8 samples.

Results

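Potassium channel genes were described in cultured mouse cardiac fibroblasts. The members were the genes whose symbol starts with Kcn followed by a family letter and a number or letter, which covers pore subunits and the auxiliary subunits named with them. There were 93 such genes among the 22274 genes of the table. In the deposited symbols the letters nc had been replaced by GFP, so the symbols of 4 members were restored from their Ensembl identifiers. Kcne4, a small membrane protein that attaches to voltage-gated pores and dampens their current, was the member with the highest level.

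The cells were fibroblasts taken from mouse hearts, where they make collagen and other matrix, and in both groups they had received TGF-β (5 ng/ml, 24 h), a cytokine that turns fibroblasts into contractile myofibroblasts. There were 4 libraries labelled GFP, from cells with a control adenovirus, and 4 labelled OEIRF7, from cells with an adenovirus for the transcription factor IRF7. The study's reagent list names an adenovirus that expresses human IRF7 with EGFP from a CMV promoter, which is active in most cell types. Expression from that virus would not be limited to a cell type, but expression of the human gene was not measured here. The list also names an adeno-associated virus with mouse Irf7 behind the periostin promoter, a type the paper describes for injection into mice. No library without TGF-β and none without virus was analysed here, and nothing in the labels says whether the 4 libraries of a group came from separate cultures, so p-values measure only the spread between these libraries. Total counts per library lay between 24888589 and 27095611 in GFP and between 24454801 and 28658826 in OEIRF7.

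Potassium channels let potassium leave the cell along its gradient and thereby set the resting potential. Voltage-gated channels open on depolarization, inward rectifiers and tandem-pore channels hold the resting potential, and calcium- or sodium-activated channels couple it to those ions inside the cell. Auxiliary subunits do not conduct and change the trafficking or gating of a pore. Fibroblasts do not fire action potentials, but their membrane potential bears on calcium entry, and cardiac fibroblasts are known to carry voltage-gated, inwardly rectifying and calcium-activated potassium currents.

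The targeted gene was examined first. Counts of the mouse gene Irf7 were 2861, 3680, 2272 and 3291 in GFP and 385, 421, 380 and 404 in OEIRF7, a log2 fold change of -2.96 (SE 0.12, adjusted p = 7.7e-11, edgeR's quasi-likelihood test with Benjamini-Hochberg adjustment). If the virus carried human IRF7, counts of the mouse gene do not measure the transgene and do not check the labels. If it carried the mouse gene, this difference goes against them. Directions below are therefore those between libraries as they were labelled. Of the markers of fibroblasts, such as Col1a1 and Dcn, the 10 genes summed to 13460 to 14180 CPM (counts scaled to library size) in GFP and 11860 to 12450 in OEIRF7, while those of cardiomyocytes summed to 10.4 to 14.2 and 8.84 to 10.5, with 9 of 10 below 1 CPM. Markers of macrophages summed to 274 to 325 CPM in GFP and 335 to 376 in OEIRF7, with 4 of 8 higher by the test. Most of the macrophage sum was Lyz2, with a mean of 202 CPM in GFP and 235 in OEIRF7. Markers of endothelial cells summed to 222 to 234 and 226 to 256 CPM, with 4 of 8 higher and 1 lower. Mural markers summed to 1403 to 1525 and 1293 to 1447, with 3 higher and 3 lower of 7 tested. Most of the mural sum was Pdgfrb alone, with a mean of 1413 CPM in GFP and 1268 in OEIRF7, so that sum mainly follows 1 gene. Epicardial markers summed to 144 to 159 and 119 to 124, with 2 of 6 higher and 2 lower. Glial markers summed to 19.3 to 25 and 20.2 to 23.5, with none of 4 tested called. Most of the fibroblast sum was Col1a1, Col1a2, Postn and Col3a1, with means of 4561, 3704, 2631 and 1648 CPM in GFP. In OEIRF7 these means were 4070, 3570, 2018 and 1143 CPM, so that sum mainly follows these matrix genes. Of the 10 fibroblast markers 6 were lower and 1 higher (Pdgfra, log2 fold change 0.25). Dcn (-0.02), Col1a2 (-0.05) and Thy1 (-0.08) were not called. These marker counts stand beside 58.9% of all tested genes called, 29% higher and 29.9% lower. In bulk RNA, fewer cells of a type and less RNA per cell cannot be told apart.

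Levels of different genes were compared per length, as FPKM (fragments scaled to gene length and library size). The family was dominated by few genes. Kcne4 was first with 106 ± 6.08 FPKM in GFP and 56.0 ± 3.41 in OEIRF7 (SD, n = 4), and Kcnj15, an inward rectifier, was second with 74.2 FPKM in GFP and 54.4 in OEIRF7. Then came Kcnab1, a cytoplasmic beta subunit of voltage-gated channels (20.7 and 9.38 FPKM), Kcnk2, a mechanosensitive tandem-pore channel (9.58 and 5.67), and Kcnt2, a sodium-activated channel (3.08 and 1.95). These 5 genes made up 92.7% to 93.7% of the summed FPKM of all members in the GFP libraries and 85.5% to 88.0% in the OEIRF7 libraries. Only 9 members had a mean of at least 1 FPKM over the 8 libraries. The summed FPKM of all members was 217 to 240 in GFP and 139 to 159 in OEIRF7, so the groups did not overlap. Without those 5 genes the order of the groups was the opposite, with 15 to 16.9 in GFP and 18.4 to 20.2 in OEIRF7.

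**Figure D1:**
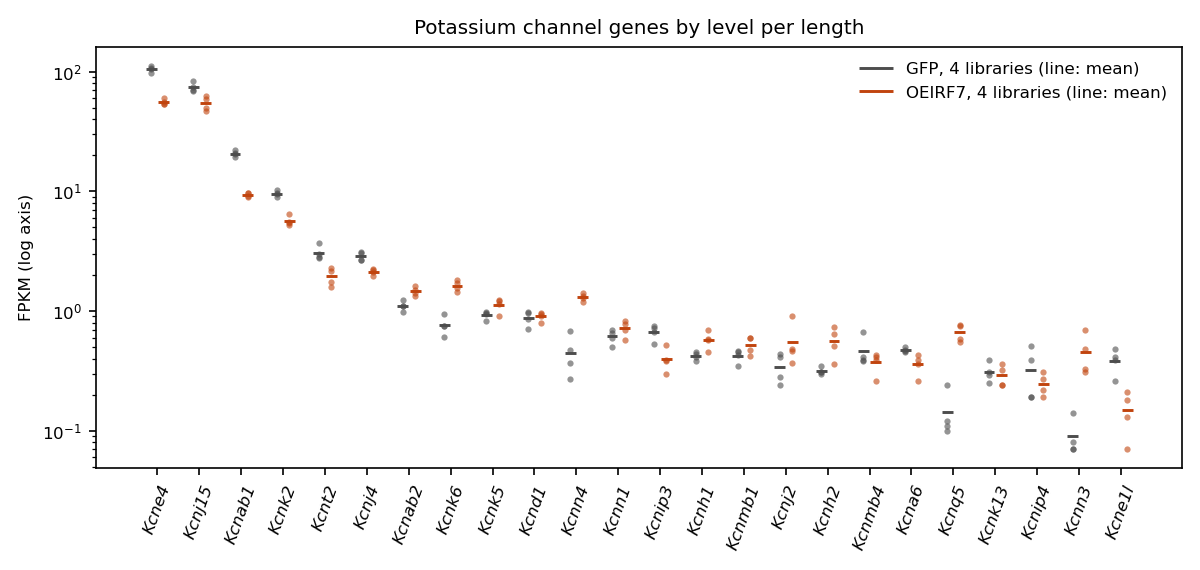
Level of each potassium channel gene with at least 0.3 FPKM in a group (24 genes), on a log axis, with 1 point per library and the groups GFP and OEIRF7 in separate colours. Kcne4 and Kcnj15 stand above the others in both groups, and all genes below the first 9 lie under 1 FPKM on average.

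After the filter on low counts 33 of the 93 members were tested. Of these, 20 differed between the groups at an adjusted p under 0.05 (60.6%), where 58.9% of all 13533 tested genes did, so a member was called about as often as any gene. There were 9 members higher in OEIRF7 (29% of all genes were) and 11 lower (29.9% of all genes were). With a fold change past 1.5 in addition, 8 members were higher, against 9.26% of all genes, and 7 were lower, against 9.64%. The 15 members called in this way were 45.5% of those tested, where the share of all genes was 18.9%. These shares are not matched for level, since 6 of the 33 tested members but 10320 of the 13533 genes had a mean above 5 CPM. The libraries of the groups did not overlap in CPM for 15 of the tested members, and for 53.8% of all genes. The median log2 fold change was 0.17 over the tested members and 0.00 over all genes. Of the 33, 25 passed the filter in each group. Kcne1l, Kcnip4 and Kcnmb4 passed only in GFP, Kcnj10 and Kcnn3 only in OEIRF7, and Kcna1, Kcnd3 and Kcnf1 through libraries of both groups together, so differences of these 8 genes are tied to the filter.

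The most abundant members were lower in OEIRF7. The 6 members with a mean above 5 CPM, a line drawn after the values were seen, were all lower in OEIRF7 by the test, while 32.9% of all genes above that level were lower and 31.8% higher. They were Kcne4, Kcnj15, Kcnab1, Kcnk2, Kcnt2 and Kcnj4. All but 1 of the 9 members that were higher, namely Kcnk6, had a mean below 5 CPM in both groups. Kcnk6 had 3.16 CPM in GFP and 6.61 in OEIRF7, and Kcnj4 had 6.23 and 4.56, so both lie close to the line. Kcnd1, which was not called, had 4.66 and 4.70 CPM. A slightly lower line would take in Kcnk6 and Kcnd1, so the count of 6 depends on where the line was drawn.

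**Figure D2:**
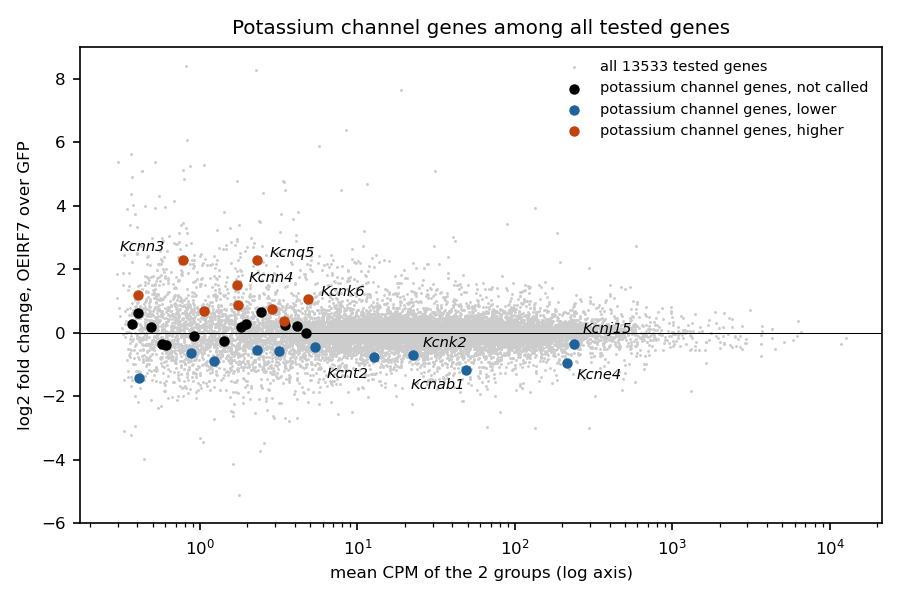
Log2 fold change of OEIRF7 over GFP against mean CPM (log axis) for all 13533 tested genes (grey) and the 33 tested potassium channel genes (coloured). The 6 members above 5 CPM lie below 0, and the members far above 0, such as Kcnq5 (2.30) and Kcnn3 (2.29), lie at low CPM.

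Among the auxiliary subunits of voltage-gated channels, 6 of 12 genes were tested, and 4 were lower in OEIRF7 and none higher. That 4 of 6 were called stands beside 58.9% of all genes called and 29.9% lower, and Kcne1l, among the 4, passed the filter only in GFP. Kcne4 (ENSMUSG00000047330, GRCm38 chr1:78816758-78820028, plus strand) had 284, 298, 289 and 261 CPM in the GFP libraries and 159, 141, 141 and 148 CPM in the OEIRF7 libraries. Every OEIRF7 library was below every GFP library, and the spread within a group was small beside the gap. Kcne4 fell by 0.94 on the log2 scale (95% interval -1.04 to -0.84, SE 0.048, adjusted p = 5.6e-10, edgeR), and in the exact two-sided permutation test p was 0.029, the smallest that 4 against 4 libraries allow. Its share of the summed FPKM of the family was 44.8% to 48.6% in GFP and 36.1% to 40.1% in OEIRF7.

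Kcnab1 (ENSMUSG00000027827, GRCm38 chr3:65109384-65378223, plus strand), whose product binds the inner face of voltage-gated pores and can speed their inactivation, had 63.8, 67.0, 66.7 and 71.4 CPM in GFP. In OEIRF7 the values were 30.8, 30.5, 28.9 and 29.4 CPM. The groups lay far apart, and the OEIRF7 libraries were close to each other. Its log2 fold change was -1.17 (SE 0.045, adjusted p = 4.5e-11, edgeR).

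Kcne1l, an X-linked relative of Kcne4, rested on few reads, with counts of 20, 16, 10 and 16 in GFP and 7, 3, 5 and 8 in OEIRF7. The groups did not overlap and the log2 fold change was -1.43, with a wide interval of -2.26 to -0.61 (adjusted p = 0.005, edgeR). Kcnip3, a calcium-binding protein that attaches to pores of the transient outward current and also acts as a transcriptional repressor, had counts of 42, 31, 45 and 46 in GFP and 25, 20, 18 and 26 in OEIRF7, a log2 fold change of -0.90 (adjusted p = 0.0041, edgeR). Kcnip4, of the same family, did not pass the test (-0.39, interval -1.17 to 0.38), nor did Kcnab2, a second beta subunit (0.20, interval -0.05 to 0.45). The other Kcne genes were at the lower end of detection, with at most 1 count of Kcne1, 5 of Kcne2 and 8 of Kcne3 in any library.

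Promoter windows of these genes were read for letters of binding motifs, since IRF proteins bind repeats of GAAA and AP-1, a target of TGF-β signaling, binds TGANTCA. RefSeq windows of GRCm38.p6, 250 bases before to 50 after a transcript start, were found for 68 of the 93 members and for 27 of the tested ones (39 windows). The letters GAAA, any 2 bases (NN) and GAAA again, on either strand, stood in 2 of these 39 windows, both of Kcnab1, and in 3.44% of the 32851 windows of all genes. TGANTCA stood in 3 of the 39 windows, of Kcnk2, Kcnip3 and Kcnip4, and in 7.81% of all windows. The stretches below are shown because Kcnab1, Kcnk2 and Kcnip3 were lower in OEIRF7, so they were picked by the result. The match of Kcnip4, which was not called, is left out. In each stretch the match is in capitals, and the sequence is read 5′ to 3′ along the gene. Counted from the transcript start of their own window, the matches begin 30 and 90 bases before it in Kcnab1, 126 in Kcnk2 and 122 in Kcnip3. The second Kcnab1 stretch holds 2 overlapping matches on the opposite strand.
Kcnab1, chr3:64949173-64949200, plus strand: agggagacaGAAACAGAAAtcaattcaa
Kcnab1, chr3:65188007-65188034, plus strand: gggatcTTTCATTTTCAGTTTCtgttca
Kcnk2, chr1:189344302-189344328, minus strand: catcctccccTGACTCAgtcatacagt
Kcnip3, chr2:127522200-127522226, minus strand: gctaattggcTGACTCAataaaaaggg
The window of Kcne4 held neither set of letters. The first Kcnab1 stretch lies well before the start of the gene in the GENCODE coordinates given above, and the second lies inside the gene. That of Kcnk2 also lies inside its gene (chr1:189207930-189402273, minus strand). The windows nearest the starts of these 2 genes in those coordinates, chr3:65108764-65109063 and chr1:189402224-189402523, held no match. Which start site the cells used was not measured, and a match describes letters only.

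Of the 15 inward rectifiers, 4 were tested and 2 were lower, where 58.9% of all tested genes were called and 29.9% were lower. Kcnj15 (GRCm38 chr16:95257558-95300260, plus strand) had 270, 245, 284 and 256 CPM in GFP and 212, 192, 242 and 185 CPM in OEIRF7. The groups did not overlap, although the highest OEIRF7 library came close to the lowest GFP library. Its log2 fold change of -0.34 (interval -0.49 to -0.19, adjusted p = 0.00073, edgeR) was smaller than that of Kcne4, and its share of the family's summed FPKM was 29.9% to 34.7% in GFP and 33.4% to 40.0% in OEIRF7. Kcnj4, a strong rectifier of heart and brain, had counts of 155, 164, 143 and 178 in GFP and 107, 137, 116 and 119 in OEIRF7 (log2 fold change -0.45, adjusted p = 0.002, edgeR).

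Kcnj2, the main pore of the cardiac inward rectifier current, had counts of 61, 33, 59 and 41 in GFP and 66, 72, 126 and 49 in OEIRF7. The groups overlapped, and the log2 fold change of 0.66 (interval 0.06 to 1.26) missed the threshold (adjusted p = 0.054, edgeR). It rested largely on OEIRF7 replicate 3, without which the log2 fold change was 0.31 (adjusted p = 0.26). With other libraries left out the adjusted p ranged from 0.024 (without OEIRF7 replicate 4) and 0.042 (without GFP replicate 3), both past the threshold, to 0.14 (without GFP replicate 2), and it was 0.034 by DESeq2 and 0.12 by limma on log2(FPKM + 1). Kcnj10, a glial rectifier, did not pass (0.62, interval -0.21 to 1.45). Pores of the ATP-sensitive channel were near 0, with at most 5 counts of Kcnj8 and 2 of Kcnj11 in any library.

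Of the 14 tandem-pore leak channels, 4 were tested, and 1 was lower and 1 higher, where 58.9% of all tested genes were called. Kcnk2 (GRCm38 chr1:189207930-189402273, minus strand), which opens on membrane stretch and lipids, had counts of 714, 699, 764 and 687 in GFP and 427, 459, 494 and 410 in OEIRF7. It had 27.95 ± 2.14 CPM in GFP and 17.1 ± 1.57 in OEIRF7 (SD, n = 4), a log2 fold change of -0.71 (SE 0.074, adjusted p = 1.1e-06, edgeR). Kcnk6 (GRCm38 chr7:29221926-29232515, minus strand), a weakly conducting channel found in endolysosomes, moved the other way, with counts of 68, 77, 97 and 81 in GFP and 163, 211, 180 and 143 in OEIRF7. Neither gene had overlapping groups, and the log2 fold change of Kcnk6 was 1.07 (SE 0.14, adjusted p = 9.6e-06, edgeR). Kcnk5, an alkaline-activated channel, and Kcnk13 did not pass, at 0.24 (interval -0.06 to 0.54) and -0.11 (interval -0.65 to 0.43).

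The families of calcium- and sodium-activated channels were counted with their non-conducting beta subunits and with Kcnu1, a relative opened by voltage and alkaline pH. They comprised 12 genes, of which 6 were tested, with 2 higher and 1 lower. This 50% called stands beside 58.9% of all tested genes. Kcnt2 (GRCm38 chr1:140246158-140612067, plus strand) had counts of 428, 461, 362 and 395 in GFP and 233, 309, 208 and 246 in OEIRF7, with a log2 fold change of -0.76 (SE 0.096, adjusted p = 7.9e-06, edgeR). Kcnn4 (GRCm38 chr7:24370263-24386690, plus strand), the intermediate-conductance calcium-activated channel known from red cells, immune cells and proliferating fibroblasts, had counts of 36, 18, 23 and 14 in GFP and 64, 75, 59 and 68 in OEIRF7. All 4 OEIRF7 libraries were above all GFP libraries, and the log2 fold change was 1.51 (interval 1 to 2.03, adjusted p = 7.5e-05, edgeR). The summed macrophage markers given above, mostly Lyz2, were also higher in OEIRF7, and their part in the counts of Kcnn4 was not tested. Of these 8 markers Mrc1, Adgre1, Lyz2 and Cd68 were higher, with log2 fold changes of 1.05, 0.44, 0.22 and 0.21, and Csf1r (0.06), C1qa (0.14), Fcgr1 (0.16) and Ptprc (-0.08) did not pass the test.

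Kcnn3 (GRCm38 chr3:89520164-89675132, plus strand), a small-conductance calcium-activated channel, had counts of 11, 5, 6 and 5 in GFP and 23, 57, 35 and 23 in OEIRF7. The groups did not overlap, and the values of OEIRF7 were spread more widely. The log2 fold change was 2.29 (interval 1.5 to 3.08, adjusted p = 8.4e-05, edgeR), for a gene that passed the filter only through its OEIRF7 libraries. Kcnn1, of the same family, and the beta subunits of the large-conductance channel, Kcnmb1 and Kcnmb4, did not pass, with log2 fold changes of 0.19, 0.27 and -0.34. The pore of that large-conductance channel, Kcnma1, had at most 5 counts in any library.

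**Figure D3:**
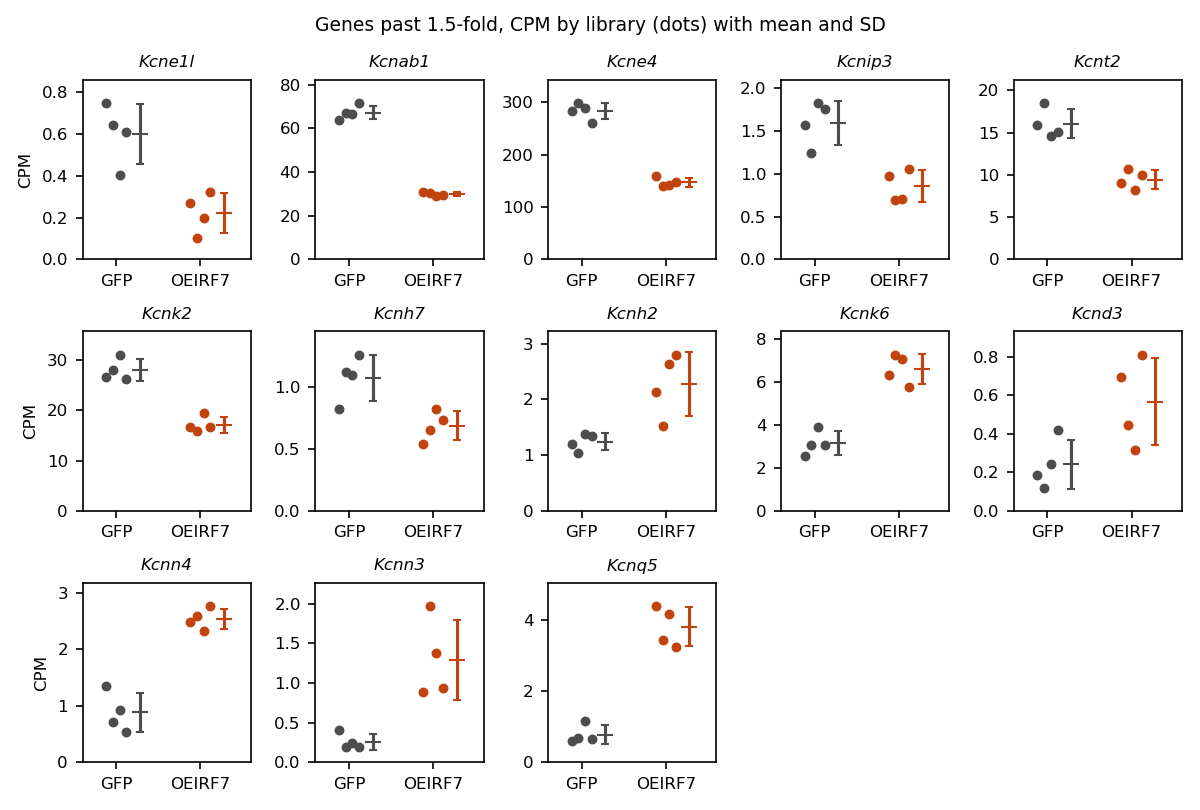
CPM of 13 members called with a fold change past 1.5, 1 panel per gene, with 1 point per library in GFP and OEIRF7 and each panel on its own axis. In 11 panels the groups do not overlap, and in those of Kcnd3 and Kcnh7 they do.

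Pore subunits of voltage-gated channels were the largest class, with 30 genes, 12 of them tested. Of these, 6 were higher and 3 lower, all at levels below 1 FPKM. The 75% called in this class of 12 stand beside 58.9% of all tested genes. Kcnq5 (GRCm38 chr1:21398403-21961942, minus strand), a slowly activating channel of the M-current type found in neurons and smooth muscle, had a fold change close to that of Kcnn3, and the order of the pair turned between alternatives. Its counts were 16, 17, 29 and 17 in GFP and 113, 100, 106 and 80 in OEIRF7. The groups were far apart, and the log2 fold change was 2.30 (SE 0.22, interval 1.82 to 2.77, adjusted p = 4.7e-07, edgeR; exact two-sided permutation p = 0.029).

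Kcnh2, the pore of the rapid delayed rectifier of the heart, had counts of 32, 26, 34 and 35 in GFP and 55, 44, 67 and 69 in OEIRF7 (log2 fold change 0.87, SE 0.22, adjusted p = 0.0037, edgeR). Every OEIRF7 library was above every GFP library. Kcna6, a delayed rectifier of the Shaker family, went the other way without overlap, with counts of 71, 73, 63 and 72 in GFP and 53, 43, 49 and 51 in OEIRF7 (log2 fold change -0.53, adjusted p = 0.012, edgeR). By limma on log2(FPKM + 1) Kcna6 was at -0.11 and was not called (adjusted p = 0.12).

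The groups overlapped in Kcnd3, Kcnh1 and Kcnh7, although these genes passed the test. Kcnd3, a pore of the transient outward current, had counts of 5, 3, 6 and 11 in GFP and 18, 13, 8 and 20 in OEIRF7 (log2 fold change 1.2, adjusted p = 0.027, edgeR). Its adjusted p was 0.054 to 0.088 without GFP replicate 1, 2 or 3 or without OEIRF7 replicate 1 or 4.

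Kcnh1, a channel active near the resting potential and known from proliferating cells, had a log2 fold change of 0.36 (adjusted p = 0.039, edgeR), which was lost by DESeq2 (adjusted p = 0.055) and without GFP replicate 2 or 3 or OEIRF7 replicate 1, 2 or 4 (0.07 to 0.12). Kcnh7, a relative of Kcnh2, was at -0.64 (adjusted p = 0.04, edgeR) and was lost by DESeq2 (0.079) and without GFP replicate 2, 3 or 4 or OEIRF7 replicate 1, 2 or 4 (0.058 to 0.11). Kcnh7 overlaps Gca on the opposite strand, a calcium-binding protein gene that was itself lower by 0.91 on the log2 scale (adjusted p = 1.8e-07, edgeR). Overlap was read from whole gene spans without comparing exons, and the strand setting of the counting is not stated. Whether reads of such pairs were mixed was not tested. Kcnh1 overlaps Hhat in the same way, which was at -0.08 (adjusted p = 0.4, edgeR). The tested members Kcnab2, Kcnip4 and Kcnmb1 also overlap a gene on the opposite strand.

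Kcnd1, a pore of the transient outward current, had the highest level of this class, at 0.875 FPKM in GFP and 0.900 in OEIRF7. Its log2 fold change was 0.01, with an interval of -0.26 to 0.28. Kcna2 (-0.25, interval -0.69 to 0.18) and Kcna1 (0.17, interval -0.56 to 0.91), pores of the Shaker family, did not pass either. Kcnf1, of the 10 silent subunits that conduct only when joined to another pore, was the only one of them tested (0.27, interval -0.47 to 1.02).

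**Figure D4:**
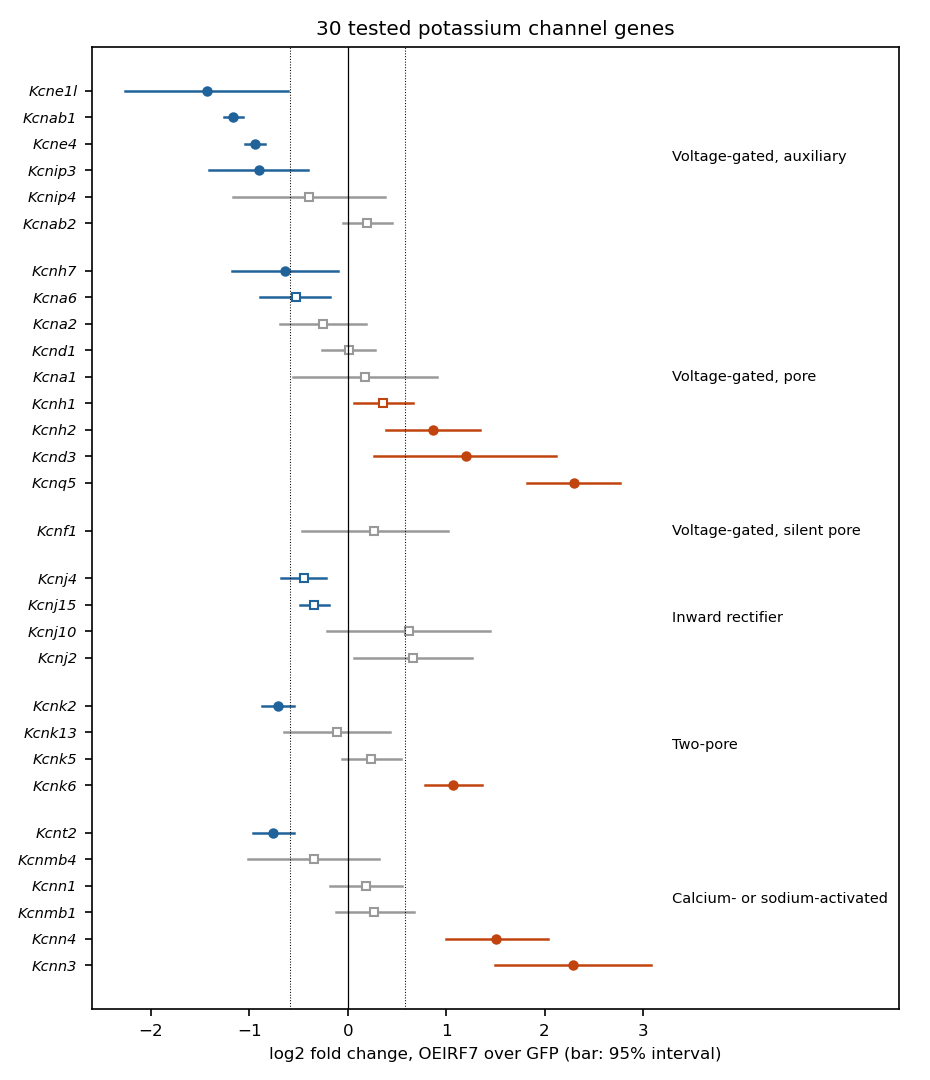
Fitted log2 fold change of OEIRF7 over GFP for 30 tested members, grouped by role, with bars for the 95% interval and dotted lines at 1.5-fold. Filled circles mark the 13 members called past 1.5-fold and open squares the others, with blue for lower, orange for higher and grey for not called. The auxiliary subunits called are all below 0, and the voltage-gated pores lie on both sides.

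The remaining 60 members were too low to test, with at most 18 counts in any library. Of these, 4 had no count at all (Kcnh5, Kcnh8, Kcnk16 and Kcnv1), which allows up to 3 counts, or 0.123 CPM in the shallowest library, for counting error only. Among them were 18 voltage-gated pores, including Kcnq1, the cardiac pore to which Kcne subunits are best known to bind, with counts of 6, 9, 7 and 8 in GFP and 16, 9, 6 and 8 in OEIRF7. Kcna5, an atrial delayed rectifier, had at most 3 counts and Kcnd2, the main transient outward pore of the mouse ventricle, at most 8. Others were Kcna3, Kcna4, Kcna7, Kcna10, Kcnb2, Kcnc1, Kcnc2, Kcnc4, Kcnh3, Kcnh4, Kcnh6 and Kcnq3, in addition to Kcnh5 and Kcnh8. At this depth no difference of these genes was testable by the filter used.

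The other members below the filter were 6 auxiliary subunits (Kcnab3, Kcne1, Kcne2, Kcne3, Kcnip1 and Kcnip2), 9 silent subunits (Kcng1 to Kcng4, Kcns1 to Kcns3, Kcnv1 and Kcnv2) and 11 inward rectifiers (Kcnj1, Kcnj3, Kcnj5, Kcnj6, Kcnj8, Kcnj9, Kcnj11, Kcnj12, Kcnj13, Kcnj14 and Kcnj16). There were also 10 tandem-pore channels (Kcnk1, Kcnk3, Kcnk4, Kcnk7, Kcnk9, Kcnk10, Kcnk12, Kcnk15, Kcnk16 and Kcnk18) and 6 ligand-activated ones (Kcnma1, Kcnmb2, Kcnmb3, Kcnn2, Kcnt1 and Kcnu1).

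Genes that work with these channels were read from lists of partners. Of 14 accessory genes 7 were tested, with 2 higher and 1 lower, where 58.9% of all tested genes were called. Lrrc55, a gamma subunit of the large-conductance channel, had counts of 9, 2, 1 and 6 in GFP and 27, 38, 27 and 21 in OEIRF7, so it passed the filter only through the OEIRF7 libraries, while the pore Kcnma1 was near 0. Hcn2, a pacemaker cation channel, was lower (log2 fold change -0.80, adjusted p = 0.00014, edgeR). Of 3 intracellular potassium channel genes, the lysosomal channel gene Tmem175 was lower, with 20.1 CPM in GFP and 11.4 in OEIRF7 (log2 fold change -0.82, adjusted p = 1.8e-06, edgeR), and Tmem38b was higher.

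Potassium pumps and cotransporters had 15 of 21 genes tested, with 7 higher and 4 lower, or 73.3% called beside 58.9% of all tested genes. Fxyd6, a small regulator of the sodium pump, was lower, from 214 to 95.8 CPM (log2 fold change -1.16, adjusted p = 6.6e-09, edgeR), while its relatives Fxyd5 and Fxyd2 were higher (0.95 and 0.71). Slc12a1, a kidney-type cotransporter, had 0, 3, 1 and 0 counts in GFP and 16, 23, 17 and 19 in OEIRF7, and it too passed the filter only through its OEIRF7 libraries. Beside the potassium channels, 3 of 11 tested voltage-gated calcium channel genes and 5 of 9 sodium channel genes were called, all of them lower, with medians of the log2 fold change of -0.13 and -0.34, where 58.9% of all genes were called and 29.9% were lower. Of 12 tested TRP and Piezo genes, 2 were higher and 5 lower, with a median of -0.07.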

How the data were processed

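RNA of 8 libraries, 4 labelled GFP and 4 labelled OEIRF7, was analysed. The authors trimmed the reads with Trimmomatic, aligned them to GRCm38 by HISAT2 and used HTSeq-count, and the gene counts they deposited were not normalized. FPKM, normalized for gene length and depth and rounded to 2 decimals, were made by the authors with Cufflinks. Tool versions and the strand setting of the counting are not given in the sources used here, and the paper and the deposited description differ on the kind of virus (adenovirus or adeno-associated virus) and on the kits. Columns with the authors' group means, fold change, p-value and FDR were not used.

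The test was run in edgeR 4.0.16 (R 4.3.3): filterByExpr by group (a minimum of 10 counts at the median depth, 0.393 CPM), TMM factors of 0.989 to 1.01, glmQLFit and glmQLFTest without covariates, and Benjamini-Hochberg adjustment over the 13533 tested genes at 0.05. CPM were computed from the counts. Intervals are 95% intervals of the fit. Any pair of libraries of a group differed by more than sampling noise (chi-square per degree of freedom 2.69 to 8.67). A fold limit of 1.5 was a further call rule. In simulated counts of 13447 genes, 100 genes were changed by 1.5-fold and 100 by 2-fold, drawn at random over all levels. There edgeR recovered 84% of the genes changed by 1.5-fold and 89% of those changed by 2-fold, with 4.95% false calls. In the data 58.9% of all genes were called, so these shares do not carry over to them or to low members.

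In each role, members past both limits and the member with the highest FPKM were named with values, other tested members by their log2 fold change, and members too low to test by their names or highest count. All 93 members were found by identifier in GENCODE M21, from which coordinates were taken, and promoter windows came from RefSeq. The values of a few genes are not reported or drawn by name here, but they are in the counts. The members and lists were chosen with earlier results of these data known. Alternatives were DESeq2 1.42.0, scaling by library size or upper quartile, other filters, the replicate number as a block, each library left out, and limma 3.58.1 on log2(FPKM + 1) or log2(FPKM + 0.1).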

Additional observations from a re-analysis of the deposited data

Results flagged for a closer look

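In 2 of 66 groups of 4 libraries (33 members in both groups, 3.03%) a library lay apart from the others by Dixon's test, which flags about 1 in 20 groups by chance. Kcnq5 had 1.18 CPM in GFP replicate 3 and 0.597 to 0.681 CPM in the other GFP libraries. This library lay nearer to the OEIRF7 values, and without it the call of Kcnq5 remained. Kcnmb4 had 0.933 CPM in GFP replicate 1 and 0.527 to 0.561 CPM in the other GFP libraries, and its log2 fold change was -0.34 with this library and -0.10 without it, not called in either case.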

How the results depend on the processing

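Of the 20 called members, 14 kept their call in every alternative that gave a value, and no called member changed direction. Among the exceptions were Kcnd3, Kcnh1, Kcnh7 and Kcna6. The counts past 1.5-fold were 1 higher and 3 lower in limma on log2(FPKM + 1), with and without a filter on low values, where 8 and 7 were called by edgeR; the pseudocount shrinks changes of low genes. Leaving out single libraries gave 6 to 11 members higher, 10 to 11 lower, and past 1.5-fold 6 to 10 higher and 6 to 7 lower. The median log2 fold change of the tested members, 0.17, was 0.23 with a minimum of 1 count in total, -0.04 with at least 10 counts in every library (26 members, fewer low genes), 0.04 and 0.01 in limma on log2(FPKM + 1) with and without the filter, and 0.06 to 0.21 with single libraries left out.

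Members that were not called and changed sign with a library left out were Kcna1 (-0.01 to 0.37), Kcnd1 (-0.08 to 0.07; -0.00 without GFP replicate 2, -0.02 and -0.01 without OEIRF7 replicate 2 and 4) and Kcnk13 (-0.22 to 0.02). With the replicate number as a block, 9 members were higher and 10 lower; Kcnh7 (adjusted p = 0.051) was lost and Kcnj2 (0.011) was gained. Libraries of the same number correlated at 0.0792 to 0.138 in their deviations and best with each other, a hint from the data only, so the numbers were not taken as pairs. With a minimum of 1 count in total, 5 of 56 members below the filter were called: Kcnab3, Kcnc2 and Kcnj14 higher and Kcnj5 and Kcns3 lower, from counts of at most 18. Depth limits what can be said of members below 1 CPM.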
